A study of Homo sapiens with 4 samples.

Results

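Silencing of TAZ in H441 cells was examined gene by gene, as the log2 signal on the array of cells given siTAZ minus that on the array of cells given the control siRNA, siNTC. H441 is an established human lung adenocarcinoma line, and RNA was taken 48 h after lipid-mediated transfection in standard growth conditions. Genes were taken from probe sets with a single gene symbol, 1 probe set per gene, and were kept where the higher of the 2 H441 arrays reached the median of the whole table (6.13). This kept 11911 of 18377 genes. Of them, 584 were kept through 1 array alone, which includes 16 of the genes at least 1.5-fold lower and 6 of those at least 1.5-fold higher. The same pair of siRNAs was given to A549, a second lung adenocarcinoma line, whose values are printed beside those of H441 where they help. Each combination of line and siRNA was 1 array, so no difference has a replicate check or a p-value, and "higher" and "lower" refer to siTAZ against siNTC on these arrays. The siRNA sequences were not used here.

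TAZ, encoded by WWTR1, is a transcriptional co-activator of the Hippo pathway. It lacks a DNA-binding domain and acts on promoters and enhancers through partners, chiefly the TEAD factors. The kinases LATS1 and LATS2 phosphorylate TAZ and its paralog YAP, which are then held in the cytoplasm by 14-3-3 proteins or degraded. In lung epithelium, YAP and TAZ are known for roles in progenitor growth, in the step from alveolar type II to type I cells, and in adenocarcinoma.

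The 2 H441 arrays correlated at r = 0.995 over all probe sets. Their medians were 6.17 with siNTC and 6.25 with siTAZ, and the siTAZ array had the narrower spread (SD 1.94 against 1.98). The difference moved with signal: its median was 0.08 among the dimmest 3971 genes, -0.0036 among the middle 3969 and -0.04 among the brightest 3971, against 0, 0 and 0.0094 for the same genes in A549. After cyclic loess, which removes such a trend, the H441 medians were 0.01, -0.0037 and 0.02, and the value after cyclic loess or median centring is printed beside list medians below. Of 309 genes read by exactly 2 probe sets, the H441 differences of the probe sets had a median absolute gap of 0.09, and 5% of gaps exceeded 0.50. Both probe sets were read on the same pair of arrays, and in 7 genes their differences were equal to 4 decimals, so this gap leaves out the spread between arrays and between cultures. The central 95% of gene differences ran from -0.46 to 0.44 for the dimmest of these groups and from -0.47 to 0.34 for the brightest. Epithelial markers matched the label, with all 9 measured at or above the table median (KRT18 at 13.64, EPCAM at 12.13 and CDH1 at 12.27 with siNTC), as did the lung transcription factor NKX2-1 at 9.14. The lowest leukocyte, endothelial and fibroblast markers were PTPRC (4.53 and 4.74), PECAM1 (5.22 and 5.20) and DCN (4.58 and 4.59). These were below the table median on both arrays. With siNTC the highest marker of each of these lists reached 10.41, 7.64 and 8.28. Of the measured markers, 5 of 10 for fibroblasts, 3 of 8 for endothelium and 2 of 9 for leukocytes reached the table median with siNTC, and 6, 4 and 2 did with siTAZ. The log2 of summed signal on the siNTC and siTAZ arrays was 15.69 and 15.51 for epithelial markers, 12.63 and 12.99 for lung adenocarcinoma markers, 9.96 and 10.11 for fibroblast markers, 9.37 and 9.55 for endothelial markers and 10.76 and 10.73 for leukocyte markers. Epithelial markers were lower in 7 of 9 cases, with a median difference of -0.13 (-0.06 after cyclic loess) and KRT7 lowest at -0.42. Lung adenocarcinoma markers were higher in 7 of 7 kept cases, with a median of 0.37 (0.28 after median centring, 0.36 after cyclic loess), and share SFTPB, SFTPD, SLC34A2 and NAPSA with the surfactant list. The kept fibroblast markers, 5 of 6 higher, had a median of 0.19 (0.13 after cyclic loess) and the 4 kept endothelial markers, all higher, one of 0.24 (0.19 after cyclic loess). The median signals of these 2 lists, 6.91 and 6.93, lay in the range of the dimmest 3971 genes, whose median difference was 0.08. The part of these markers in the other results was not tested.

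Differences were small for most genes. At 1.5-fold, 173 genes (1.45%) differed, 116 lower (0.974%) and 57 higher (0.479%), and at 2-fold 5 genes did (0.042%), 4 lower (0.0336%) and 1 higher (0.0084%). A log2 difference of 0.32, the smallest threshold used and written as 0.32 below, was reached by 1521 genes (12.8%), of which 838 were lower (7.04%) and 683 higher (5.73%). Over all 11911 genes the median difference was 0.0048, and 48.8% of genes were lower. CDK1 (-0.588) was the gene just inside the 1.5-fold line on the lower side and MED4 (-0.584) the one just outside; on the higher side these were CENPK (0.588) and OSR1 (0.579). Median centring of each array, which moves every H441 difference down by 0.08, turned the split at 1.5-fold into 220 lower and 26 higher. The median of all genes was then -0.08, the value that list medians after median centring stand beside.

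**Figure D1:**
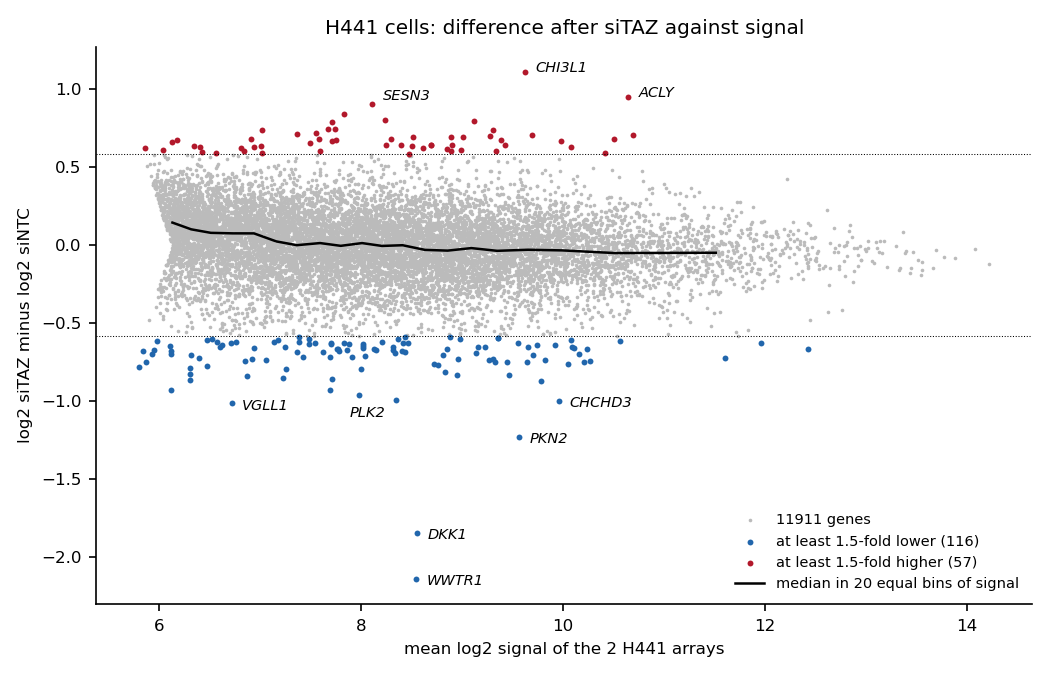
Difference between the siTAZ and siNTC arrays (log2) against the mean log2 signal of the 2 H441 arrays, 1 point per gene for 11911 genes; dotted lines mark 1.5-fold and the black line is the median in 20 equal bins of signal. The 116 lower genes (blue) and 57 higher genes (red) were spread over the whole range of signal, WWTR1 and DKK1 lay far below the rest, and the median line passed from above 0 in dim genes to below 0 in bright ones.

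WWTR1, the gene targeted by siTAZ, was the gene with the lowest difference, with a log2 signal of 9.61 with siNTC and 7.47 with siTAZ, 22.7% of the control signal. DKK1, a secreted inhibitor of Wnt signalling that binds the LRP5 and LRP6 co-receptors, came next at 9.48 and 7.63, a 3.59-fold lower signal. PKN2, a protein kinase related to protein kinase C, had 10.18 and 8.95 (2.34-fold lower). VGLL1, whose protein binds TEAD factors through a vestigial-like motif, had 7.23 and 6.21 (2.02-fold lower). These were the only genes past 2-fold on the lower side, and CHCHD3, a subunit of the complex that shapes mitochondrial cristae, stood just outside at 10.46 and 9.46 (1.995-fold). PLK2, a polo-like kinase of centriole duplication, had 8.84 and 7.85, and COX7B, a subunit of cytochrome c oxidase, 8.46 and 7.50.

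The rest of the 25 genes with the lowest differences lay between 1.70-fold and 1.91-fold. Among them were genes of the cell surface and its attachments. ITGA6, the laminin-binding integrin alpha 6, had 7.66 and 6.81, and ADGRG6, an adhesion G protein-coupled receptor, 9.23 and 8.42. CAVIN2, a coat protein of caveolae, had 7.65 and 6.86. SCEL, sciellin, a precursor of the cornified envelope of stratified epithelia, had 9.88 and 9.05, and NEXN, an actin-binding protein of cell-matrix junctions, 7.29 and 6.45. The cytokine gene IL18 had 6.74 and 5.87. YWHAH, the eta member of the 14-3-3 family, had 9.37 and 8.54, and ERLIN1, a membrane protein of the endoplasmic reticulum that takes part in protein degradation there, 10.22 and 9.35. GK5, a gene of the glycerol kinase family, had 8.16 and 7.23. The small GTPase gene RAB28 had 8.39 and 7.60, and CCDC59, whose product binds the lung factor NKX2-1, 9.15 and 8.38. AOX1, aldehyde oxidase, was dim (6.19 and 5.41), as were ZNF347 (6.58 and 5.65), the non-coding RNA gene JPX (6.72 and 5.90) and PPP1R1C (6.86 and 6.09). H2BC4 (8.14 and 7.28), EIF2S3B (6.70 and 5.91) and PMS2 (9.11 and 8.34) have near-identical relatives in the genome, so their probes may read more than 1 gene.

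**Figure D2:**
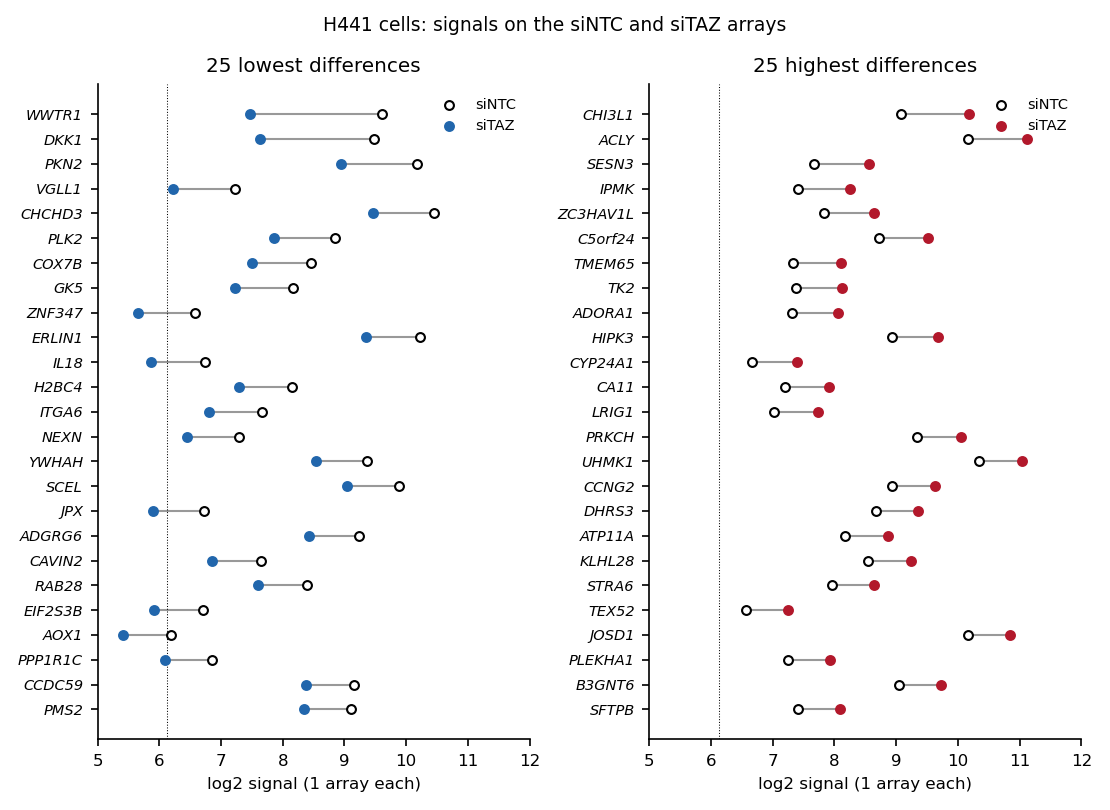
Log2 signals on the siNTC array (open circles) and the siTAZ array (filled circles) for the 25 H441 genes with the lowest differences (left) and the 25 with the highest (right), 1 array each; the dotted line is the table median of 6.13. WWTR1 and DKK1 show the widest gaps on the left and CHI3L1 on the right, and 6 of the 25 lower genes (ZNF347, IL18, JPX, EIF2S3B, AOX1 and PPP1R1C) end below the table median.

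On the higher side CHI3L1, a secreted chitinase-like glycoprotein without enzyme activity, led with 9.07 and 10.18 (2.16-fold). ACLY, which makes cytosolic acetyl-CoA from citrate, had 10.17 and 11.12 (1.93-fold), and SESN3, a stress-inducible sestrin that restrains TORC1, 7.66 and 8.56 (1.87-fold). IPMK, an inositol polyphosphate kinase, had 7.42 and 8.25. Of the other genes, HIPK3 (8.94 and 9.68) and UHMK1 (10.34 and 11.04) encode serine/threonine kinases. PRKCH, the epithelial protein kinase C eta, had 9.34 and 10.05. LRIG1, a membrane protein that promotes the degradation of ERBB receptors, had 7.01 and 7.73, and CCNG2, the non-canonical cyclin G2 of resting cells, 8.93 and 9.63. STRA6, the cell surface receptor for retinol-binding protein, had 7.96 and 8.64, and DHRS3, which reduces retinal back to retinol, 8.67 and 9.36. CYP24A1, the enzyme that inactivates vitamin D, had 6.66 and 7.39. ADORA1, the adenosine A1 receptor, had 7.31 and 8.05, and B3GNT6, which builds core 3 O-glycans on mucins, 9.05 and 9.72. SFTPB, surfactant protein B, closed the list of 25 with 7.42 and 8.09 (1.60-fold). The other 10 were ZC3HAV1L, C5orf24, TMEM65, TK2, CA11, ATP11A, KLHL28, TEX52, JOSD1 and PLEKHA1, between 1.60-fold and 1.74-fold higher.

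Both directions held genes with a difference of the same sign in A549 and genes without one. Of the 116 lower genes, 96 were also below 0 in A549 (82.8%, against 49.1% of all 11911 genes), 25 of them past 1.5-fold. Of the 57 higher genes, 43 were above 0 there (75.4%, against 50.04% of all genes), 23 past 1.5-fold. The share of all genes past 1.5-fold in A549 is not given here, so these counts at 1.5-fold have no baseline. No gene passed 1.5-fold in opposite directions. SNORD13P3 (0.66 in H441 and -0.58 in A549) and SLC2A3 (0.64 and -0.58) stood just short of that line in A549. PKN2 had -1.23 in H441 and -1.22 in A549, CHCHD3 -0.997 and -1.21, and PLK2 -0.99 and -1.04. Among the 25 lowest, COX7B (-0.96 and -0.01), H2BC4 (-0.86 and 0.10), NEXN (-0.84 and 0.09), SCEL (-0.83 and -0.10) and CAVIN2 (-0.80 and 0.03) had A549 differences near 0. NEXN and SCEL were below the table median on both A549 arrays (5.11 and 5.20, 4.64 and 4.54), as was CHI3L1, so their values there do not show whether the gene responded. On the higher side CHI3L1 had 1.11 in H441 and -0.27 in A549, where its signals were 5.65 and 5.38, PRKCH had 0.71 and -0.06, and ADORA1 0.74 and -0.0030. The difference of response between lines could not be tested with 1 array per line and siRNA.

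**Figure D3:**
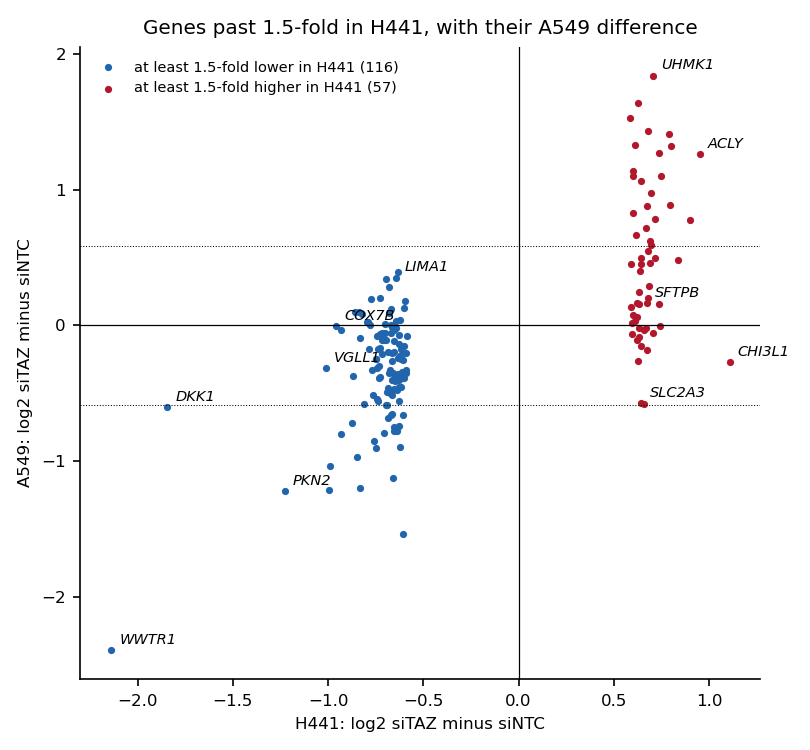
A549 difference (vertical, log2 siTAZ minus siNTC) against the H441 difference (horizontal) for the 173 genes past 1.5-fold in H441, 1 point per gene; dotted lines mark 1.5-fold in A549. Most blue points (lower in H441) lie below 0 and most red points (higher in H441) above 0 in A549, while CHI3L1 and SLC2A3 lie below 0 and COX7B near it.

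The windows around gene starts were read for the core of the TEAD recognition sequence, GGAATG, on either strand, in the 300 bases that RefSeq (GRCh38.p14) gives from 250 before to 50 after each start. Of the 11911 genes, 9588 had a window, and 10.6% of these held the motif, as did 14% of all 27305 windows. It was found in 11 of 90 windows of genes at least 1.5-fold lower (12.2%) and in 7 of 41 of those at least 1.5-fold higher (17.1%). Among the established YAP/TAZ target genes, 6 of 15 windows held it (40%). The 5 windows below show both sides. CCN2, a textbook TAZ target, had 3 copies and was higher by 0.24, the highest value among the 21 kept target genes. Its signal was barely above the table median, so its difference carries little weight in either direction. The other windows are those of DKK1, VGLL1 and CAVIN2, which were lower, and of SLC34A2, which was higher. Each is written 5′ to 3′ on the gene's own strand, with GGAATG or its reverse complement CATTCC in capitals.
DKK1 (chr10:52314031-52314330, plus strand): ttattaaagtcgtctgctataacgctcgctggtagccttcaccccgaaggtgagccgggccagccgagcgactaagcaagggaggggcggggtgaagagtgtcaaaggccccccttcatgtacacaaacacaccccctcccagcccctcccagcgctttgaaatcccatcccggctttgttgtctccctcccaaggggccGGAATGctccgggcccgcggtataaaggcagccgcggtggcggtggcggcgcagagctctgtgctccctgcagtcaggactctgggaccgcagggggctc
VGLL1 (chrX:136531965-136532264, plus strand): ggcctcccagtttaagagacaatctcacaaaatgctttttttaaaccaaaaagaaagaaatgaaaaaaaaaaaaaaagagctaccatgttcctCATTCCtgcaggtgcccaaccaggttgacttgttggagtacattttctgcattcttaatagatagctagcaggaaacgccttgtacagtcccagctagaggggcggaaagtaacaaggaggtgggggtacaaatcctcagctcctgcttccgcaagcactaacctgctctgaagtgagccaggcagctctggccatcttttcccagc
CAVIN2 (chr2:191847039-191847338, minus strand): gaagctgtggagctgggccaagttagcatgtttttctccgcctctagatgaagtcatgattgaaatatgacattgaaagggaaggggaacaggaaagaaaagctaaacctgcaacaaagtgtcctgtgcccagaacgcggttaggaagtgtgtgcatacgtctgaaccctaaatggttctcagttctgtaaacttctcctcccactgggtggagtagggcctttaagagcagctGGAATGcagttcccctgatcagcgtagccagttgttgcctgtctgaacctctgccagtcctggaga
CCN2 (chr6:131951323-131951622, minus strand): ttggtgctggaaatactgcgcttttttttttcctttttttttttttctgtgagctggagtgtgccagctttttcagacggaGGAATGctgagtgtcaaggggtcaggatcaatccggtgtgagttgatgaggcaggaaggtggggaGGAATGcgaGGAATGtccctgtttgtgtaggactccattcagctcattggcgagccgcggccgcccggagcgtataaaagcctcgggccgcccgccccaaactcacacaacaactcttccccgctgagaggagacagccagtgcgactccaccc
SLC34A2 (chr4:25655601-25655900, plus strand): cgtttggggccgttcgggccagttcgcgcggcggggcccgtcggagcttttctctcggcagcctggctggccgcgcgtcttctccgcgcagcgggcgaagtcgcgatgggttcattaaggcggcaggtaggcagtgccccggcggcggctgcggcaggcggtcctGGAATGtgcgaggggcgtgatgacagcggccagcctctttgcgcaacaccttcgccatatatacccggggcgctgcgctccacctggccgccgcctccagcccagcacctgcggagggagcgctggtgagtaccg
The motif began 50 bases before the start in DKK1, 157 in VGLL1, 16 in CAVIN2, 85 in SLC34A2, and 169, 104 and 95 in CCN2. A match is a description of the letters only.

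Of the genes of TAZ itself and its partners, WWTR1 and VGLL1 stood apart in H441. YAP1, the paralog, had 10.46 with siNTC and 10.55 with siTAZ. The TEAD genes, which encode the DNA-binding partners, lay on both sides of 0: TEAD1 had 8.84 and 8.53 (-0.31), TEAD2 7.23 and 7.55 (0.32), TEAD3 8.37 and 8.61 (0.23) and TEAD4 8.26 and 8.21 (-0.04). VGLL4, which competes with YAP and TAZ for TEAD, had 7.999 and 8.19, and VGLL2 and VGLL3 were below the table median on both arrays. Upstream, 17 of 22 Hippo kinases, adaptors and angiomotins were lower, with a median of -0.15 (-0.12 after cyclic loess). Past 0.32, only 2 were lower (9.09%, against 7.04% of all genes) and 1 higher (4.55%, against 5.73%). PTPN14, a phosphatase that retains YAP in the cytoplasm, had -0.43, and the LATS activator MOB1A -0.38. LATS1 had 7.78 and 8.17 (0.39), the only member past 0.32 upwards.

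Established YAP/TAZ target genes were mostly lower, 16 of 21 with a median of -0.15 (-0.24 after median centring, -0.12 after cyclic loess), against 0.0048 over all genes. Past 0.32, 6 were lower (28.6%, against 7.04% of all genes) and 0 higher (against 5.73%). At 1.5-fold 2 were lower (9.52%, against 0.974%). AXL, a receptor tyrosine kinase, had 8.05 with siNTC and 7.33 with siTAZ (-0.72), and CCN1, a matricellular integrin ligand, 10.24 and 9.60 (-0.64). PTPN14 had -0.43, TGFB2, a TGF-beta ligand, -0.41, RBMS3, an RNA-binding protein, -0.38 and FJX1 -0.36. MYOF, a membrane repair protein of the ferlin family, had -0.31, CCDC80 -0.30 and CRIM1 -0.27. Other members were near 0: GADD45A had 10.65 and 10.66, F3, tissue factor, 8.20 and 8.20, DOCK5 -0.06 and NUAK2 -0.04. CCN2 (6.16 and 6.40, 0.24) had the highest difference of the 21 but was barely above the table median, and ANKRD1 (5.98 and 5.67) was below it. ARHGEF17 (0.22), FOXF2 (0.18) and LATS2 (0.15) were also on the higher side. Of the 14-3-3 proteins, YWHAH alone was past 1.5-fold (1 of 7, 14.3%, against 0.974% of all genes lower). YWHAG had 9.28 and 9.68 (0.39), and the other 5 lay between -0.21 and 0.10. The median of the 7, -0.07, was the value of YWHAE, whose 2 probe sets disagreed in sign (-0.07 and 0.04). This median was 0.0 after quantile normalization, 0.02 after cyclic loess and -0.01 with the mean of probe sets.

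**Figure D4:**
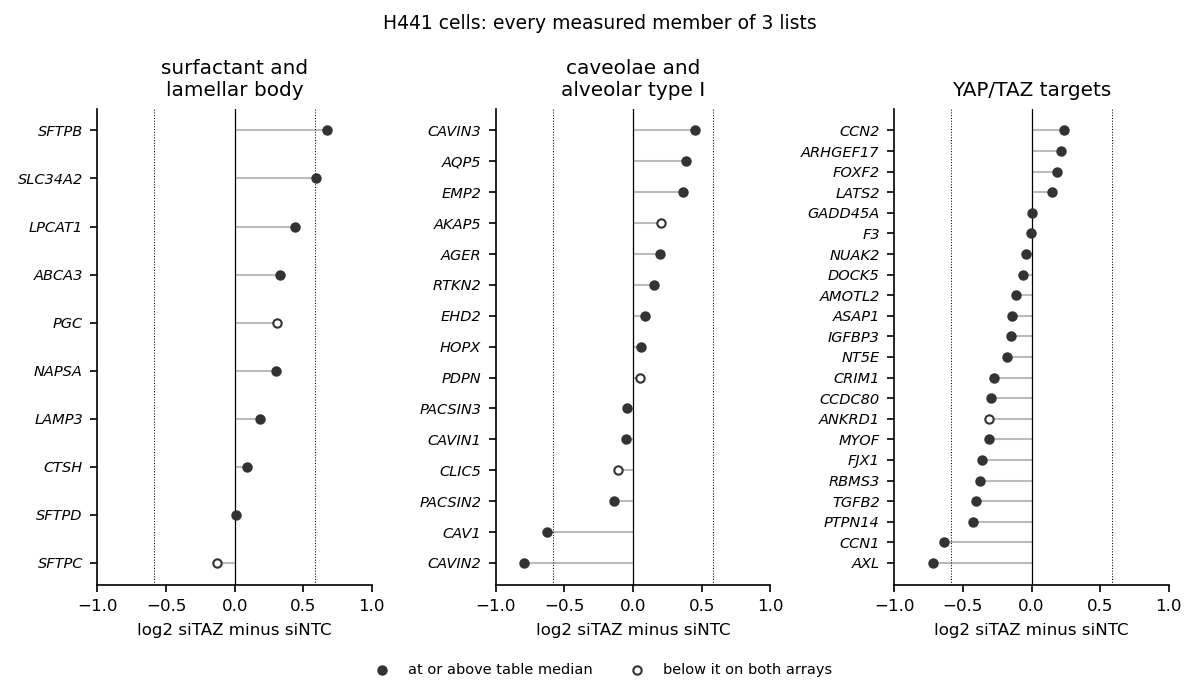
H441 difference (log2 siTAZ minus siNTC, 1 array each) of every measured member of 3 lists, ordered by value; open circles are genes below the table median on both arrays and dotted lines mark 1.5-fold. Surfactant genes lie at or above 0 apart from SFTPC, CAV1 and CAVIN2 lie apart from the other caveolar genes, and most YAP/TAZ targets lie below 0.

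Genes of alveolar type II cells, which make and store surfactant, were on the higher side. All 8 kept members of the surfactant and lamellar body list had positive differences, with a median of 0.32 (0.23 after median centring, 0.30 after cyclic loess). Past 0.32 there were 4 (50%, against 5.73% of all genes). After cyclic loess 7 of the 8 were positive, SFTPD being the exception. SFTPB passed 1.5-fold, as did SLC34A2, the sodium-dependent phosphate carrier of these cells, with 10.12 and 10.71. These 2 were 25% of the 8, against 0.479% of all genes. LPCAT1, an enzyme of surfactant phospholipid synthesis, had 10.33 and 10.77 (0.44), and ABCA3, which loads lipid into lamellar bodies, 6.74 and 7.06 (0.33). The aspartic protease NAPSA, which processes surfactant protein B, had 10.10 and 10.40 (0.30), LAMP3 0.19 and CTSH 0.09. SFTPD was dim and level (6.45 and 6.46). SFTPC (5.84 and 5.71) and PGC (5.44 and 5.75) were below the table median on both arrays, and SFTPA1 and SFTPA2 were not analysed here. Lung and endoderm transcription factors as a list had a median of 0.06, which was -0.03 after median centring and 0.01 after cyclic loess. Within it NKX2-1, the master regulator of surfactant genes, had 9.14 and 9.57 (0.43), FOXA2 6.56 and 6.92 (0.37), CEBPD 8.29 and 8.61 (0.32), ETV5 0.30 and CEBPA 0.28. The epithelial ETS factor EHF went the other way, with 7.33 and 6.87 (-0.46).

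The caveolae and alveolar type I list was split, 7 members higher and 5 lower. CAV1, the main coat protein of caveolae, had 12.27 and 11.64 (-0.63) and CAVIN2 -0.80, the only members past 1.5-fold. CAVIN1, needed for caveolae to form, had 8.63 and 8.58, EHD2 8.61 and 8.70, while CAVIN3 had 6.35 and 6.80 (0.45). AQP5, a water channel of type I cells, had 6.001 and 6.39 (0.39), EMP2 0.37, AGER 0.19 and RTKN2 0.15, and PDPN (4.996 and 5.05) was below the table median. Airway secretory and mucin genes had 5 members higher and 5 lower, and 11 more were too dim. LCN2, the siderophore-binding lipocalin, had -0.49, MUC20 -0.31, AGR2 -0.22 and MUC1 0.27.

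Mitosis genes were lower as a group. Of 80 members, all above the filter, 73 were lower, with a median of -0.23 (-0.31 after median centring, -0.20 after quantile normalization and -0.19 after cyclic loess). Past 0.32, 31 were lower (38.75%, against 7.04% of all genes) and 0 higher (against 5.73%). At 1.5-fold 5 were lower (6.25%, against 0.974%). ANLN, the actin-binding scaffold of the cytokinetic ring, had 10.59 with siNTC and 9.84 with siTAZ. DEPDC1 had 10.05 and 9.35, KIF18A, a kinesin that dampens chromosome movement, 8.33 and 7.70, NUSAP1, a spindle protein, 9.65 and 9.06, and CDK1, the mitotic kinase, 9.18 and 8.59. HMMR, a spindle pole protein, had -0.57. The same 80 genes had a median of -0.02 in A549. Centrosome and centriole genes followed the same direction, 39 of 51 lower with a median of -0.20 (-0.19 after cyclic loess). CEP15 had 9.82 and 9.07, CEP192 -0.48, CEP295 -0.46 and NEDD1 -0.45, with CEP97 at 0.41. Of 17 CENP genes 12 were lower, with a median of -0.15 (-0.18 after cyclic loess), among them CENPE and CENPH (both -0.46), while CENPK had 8.18 and 8.77 and CENPB 0.46.

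G1/S and DNA replication genes were lower in 53 of 69 cases, with a median of -0.14 (-0.08 after cyclic loess). Past 0.32, 10 were lower (14.5%, against 7.04% of all genes) and 1 higher (1.45%, against 5.73%). MCM8, a helicase subunit used in replication and repair, had 8.34 and 7.69 (-0.65), RRM2, the regulated subunit of ribonucleotide reductase, -0.55, DTL -0.48, CDC25A -0.47 and ORC6 -0.41. Homologous recombination and Fanconi genes had 22 of 29 lower and a median of -0.11 (-0.10 after cyclic loess). FANCL at -0.52 and FANCM at -0.41 were the 2 past 0.32 downwards (6.90%, against 7.04% of all genes). Among replication-dependent histone genes 26 of 39 were lower (median -0.10, -0.05 after cyclic loess). After H2BC4 came H2BC9 (-0.50) and H2BC5 (-0.39), and H3C7 was at 0.62, but these genes are near-identical copies whose probes may cross-read. In the list of CDK inhibitor, FOXO and quiescence genes, 18 of 28 were higher, and the median of 0.07 was -0.01 after median centring and 0.06 after cyclic loess. SESN3 and CCNG2 were the only members past 0.32 upwards (7.14%, against 5.73% of all genes). CDKN1B, the CDK inhibitor p27, was lower (-0.45).

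In lipid metabolism ACLY stood well above the rest of its list. Fatty acid synthesis and elongation genes had a median of 0.05 (-0.03 after median centring, 0.10 after cyclic loess), with ELOVL5 at 0.39, SREBF1, the lipogenic transcription factor, at 0.31 and ACSL1 at 0.29. ELOVL6 (-0.51) and HSD17B12 (-0.44), both of the fatty acid elongation cycle, were lower. Cholesterol synthesis genes were higher in 16 of 21 cases by a small amount, the median of 0.07 being -0.01 after median centring and 0.15 after cyclic loess. INSIG1, which holds SREBP in the endoplasmic reticulum, had 9.56 and 10.02 (0.46) and was the only member past 0.32 (4.76%, against 5.73% of all genes higher). Hypoxia response genes were higher in 21 of 28 cases, with a median of 0.12 (0.04 after median centring, 0.13 after cyclic loess). Past 0.32, 4 were higher (14.3%, against 5.73% of all genes). SLC2A3, a glucose transporter, had 7.93 and 8.57 (0.64), VEGFA, the angiogenic growth factor, 9.77 and 10.40 (0.63), NDRG1 0.41 and P4HA2, a collagen prolyl hydroxylase, 0.36. Glycolysis genes had a median of 0.07 (-0.02 after median centring, 0.13 after cyclic loess), with ENO2 at 0.46, PFKFB4, which makes the activator of phosphofructokinase, at 0.45 and ALDOC at 0.33. PFKFB2 was at -0.34.

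Oxidative phosphorylation subunit genes were evenly divided, 38 higher and 35 lower, with a median of 0.01 that was -0.07 after median centring and 0.05 after cyclic loess. Past 0.32, 5 members were lower (6.85%, against 7.04% of all genes) and 0 higher (against 5.73%). The lower ones were COX7B (-0.96), NDUFA12 (-0.42), NDUFV2 (-0.37), NDUFB6 (-0.37) and NDUFA5 (-0.33). TCA cycle genes had a median of 0.0046 (-0.08 after median centring, 0.03 after cyclic loess), with PC, pyruvate carboxylase, at 0.51 and SUCLA2 at 0.32. Of the nucleotide synthesis genes, mitochondrial TK2 had 7.37 and 8.12 and GART, a purine synthesis enzyme, 10.96 and 10.45 (-0.51). Antioxidant genes under NRF2 had a median of -0.04 (0.04 after cyclic loess), with MGST1 at -0.38 and TALDO1 at -0.36. ALDH1A3, at -0.41, had a second probe set at 0.32, so its direction is unsettled. Metallothionein genes were lower in 7 of 9 cases (median -0.16, -0.13 after cyclic loess), none past 0.32 (against 7.04% of all genes lower and 5.73% higher).

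Cell-matrix genes were mixed. Integrin genes had a median of -0.08 (-0.01 after cyclic loess), and ITGB1, the common beta 1 subunit, had 11.26 and 10.80 (-0.46), while ITGAV had 0.24 and ITGB4 0.29. Collagens and collagen-modifying enzymes were higher in 30 of 35 cases, with a median of 0.17 (0.08 after median centring, 0.11 after cyclic loess). Most of these were dim, and the list's median signal of 6.92 lay in the dimmest of the 3 groups by signal, where all genes had a median of 0.08. The brighter members were LOXL2, a lysyl oxidase that cross-links collagen (8.31 and 8.80, 0.49), PCOLCE (7.86 and 8.34, 0.48) and COL1A1 (8.28 and 8.71, 0.44). Metalloproteases and their inhibitors were higher in 19 of 24 cases, with a median of 0.16 (0.08 after median centring with 16 of 24 higher, 0.13 after cyclic loess), and their median signal of 7.21 lay in the same dim group. MMP13 and MMP15 had 0.49 each and MMP9 0.34, and ADAM9, a membrane sheddase, went the other way with 12.03 and 11.45 (-0.58). In the mixed list of urokinase, plasminogen activation and serpin genes, PLAU, urokinase, had 11.996 and 11.44 (-0.56), TFPI -0.52 and THBD 0.38. IGFBP4 (0.49), CCN5 (0.45) and LTBP3 (0.40) were the highest matricellular genes.

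Keratin and desmosome genes were lower in 20 of 27 cases, with a median of -0.13 (-0.11 after cyclic loess). KRT4 had 9.42 and 8.87 (-0.55), DSG2 -0.49, PPL, periplakin, -0.44 and KRT7 -0.42, whereas DSC2 had 10.55 and 11.02 (0.47). Claudin, tight and adherens junction genes had a median of -0.01 (0.02 after quantile normalization). CDH11, a cadherin of mesenchymal cells, had 9.10 and 9.75 (0.64) and CLDN11 0.57, and CDH1 was level (12.27 and 12.20). EMT factors and mesenchymal markers were higher in 10 of 14 cases, with a median of 0.12 (0.04 after median centring, 0.08 after cyclic loess). The list's median signal of 7.07 lay in the dimmest of the 3 groups by signal. All genes of that group had a median of 0.08, and 36.7% of them were lower. Past 0.32 upwards were CDH11, LOXL2 and COL1A1 (21.4%, against 5.73% of all genes), and 1 member passed it downwards (7.14%, against 7.04%). The lowest members were both dim: ZEB1 had 6.23 and 5.90 and VIM 6.54 and 6.29. Of 44 actin cytoskeleton and focal adhesion genes 31 were lower, the median being -0.08 (-0.01 after cyclic loess, with 23 lower and 21 higher). Past 0.32, 2 were lower (4.55%, against 7.04% of all genes) and 1 higher (2.27%, against 5.73%). At 1.5-fold 2 were lower (4.55%, against 0.974%). CSRP1, a LIM protein of actin bundles, had 10.44 and 9.78 (-0.66) and LIMA1, which stabilises actin filaments, 10.07 and 9.43 (-0.64), with LPP at 0.48. ANXA1 and ANXA3 had -0.43 each and TM4SF18 -0.53.

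In signalling pathways single genes differed by more than list medians did. EGFR had 8.97 and 8.65 (-0.32), while its antagonist LRIG1 was higher. Among other receptor and Src family kinases LYN had 10.43 and 9.67 (-0.76) and EPHA2 10.41 and 9.99 (-0.41), and FGR, DDR2 and EPHB6, all dim, were between 0.44 and 0.50. FOSL1, the AP-1 subunit FRA1, had 10.19 and 9.46 (-0.73) and EGR1, an immediate early zinc finger factor, 8.19 and 8.82 (0.63). The AP-1 and immediate early list was higher in 21 of 29 cases with a median of 0.08, which was 0.0002 after median centring and 0.08 after cyclic loess. MAP kinase feedback genes had 17 of 24 higher and a median of 0.11, and 13 of 24 higher and a median of 0.03 after median centring (0.11 after cyclic loess), with SPRY4 at 0.60 and SPRED1 at 0.48. TGF-beta and BMP pathway genes had 25 of 37 higher, with a median of 0.14 (0.06 after median centring, 0.09 after cyclic loess). The type I receptor TGFBR1 had 8.18 and 8.76 (0.57), the BMP signal transducer SMAD5 8.54 and 9.10 (0.56) and the stress cytokine GDF15 8.80 and 9.33 (0.54). The ligand BMP2 had 0.42, and BMP4 (-0.46) and SKIL, a SMAD repressor (-0.48), were lower. Of the Wnt genes 34 of 51 were higher, but the median of 0.08 was -0.01 after median centring and 0.05 after cyclic loess. The list's median signal of 7.26 lay in the dimmest of the 3 groups by signal, where all genes had a median of 0.08. DKK1 was the only member past 1.5-fold (1.96%, against 0.974% of all genes lower). Past 0.32, 7 were higher (13.7%, against 5.73%) and 2 lower (3.92%, against 7.04%). WNT7B had 7.49 and 7.04 (-0.45), WNT1 0.43, ROR1 0.36 and FZD4 0.35. Among p53 targets and apoptosis regulators, BMF (0.49) and BOK (0.43), both pro-apoptotic, were higher, and BNIP2 (-0.54), BCL2L1, which encodes BCL-XL (-0.41), CASP4 (-0.41) and CFLAR (-0.36) lower.

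Immune response genes of the interferon type were on the lower side. Of 43 type I interferon response genes 36 were lower, with a median of -0.13 (-0.22 after median centring, -0.16 after cyclic loess). SAMD9 had 9.67 and 8.94 (-0.73), SP100, of nuclear bodies, 8.11 and 7.44 (-0.67), IFIT2 -0.50 and IRF1 -0.46, while MX2 had 7.28 and 7.85 (0.58) and OASL 6.97 and 7.43 (0.46). MHC class I and antigen processing genes were lower in 12 of 16 cases, with a median of -0.19 (-0.14 after cyclic loess). The peptide-trimming ERAP2 had 9.74 and 9.26 (-0.47), and the immunoproteasome subunits PSMB10, PSMB8 and PSMB9 had -0.42, -0.30 and -0.25. JAK2, a kinase of cytokine receptors, had 6.59 and 6.06 (-0.53). The NF-kB and cytokine list had a median of 0.03 (-0.05 after median centring, 0.02 after cyclic loess), with IL23A at 0.48, ICAM1 at 0.34 and IL18 far below at -0.87. Of 14 chemokine genes 10 were higher (median 0.12, 0.04 after median centring or cyclic loess), led by CX3CL1 with 8.53 and 9.07 (0.54). The chemokine list's median signal of 7.18 lay in the dimmest of the 3 groups by signal, where all genes had a median of 0.08.

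Translation and organelle lists had medians near 0. Mitochondrial ribosomal protein genes were lower in 53 of 72 cases with a median of -0.06 (-0.03 after cyclic loess), and MRPL15 had 9.48 and 8.79 (-0.69). Cytosolic ribosomal protein genes were lower in 44 of 64 cases, but the median of -0.05 was 0.01 after quantile normalization or cyclic loess. Probe sets of the same gene disagreed in sign for RPL5, RPL12, RPL29, RPL34, RPL41, RPS7 and RPS25. Initiation and elongation factors had a median of -0.09 (-0.04 after cyclic loess). Small nucleolar RNA genes had 42 of 72 higher and a median of 0.07 (-0.01 after median centring, 0.02 after cyclic loess). Their median signal of 7.22 lay in the dimmest of the 3 groups by signal, where all genes had a median of 0.08. Among them SNORA80B had 0.63, SNORD13 0.57, SNORD14C -0.65 and SNORD49A -0.60. Proteasome genes had 32 of 43 lower and a median of -0.07 (-0.005 after cyclic loess). Unfolded protein response genes had a median of 0.01 (-0.07 after median centring, 0.08 after cyclic loess), with SDF2L1 at 0.33. Lysosomal genes had a median of 0.02 and vacuolar ATPase genes one of 0.06 (-0.06 and -0.03 after median centring, 0.08 and 0.12 after cyclic loess), and within them the lysosomal membrane receptor SCARB2 had 10.50 and 9.81 (-0.70) and ATP6V0D2 -0.51. Autophagy genes were lower in 22 of 34 cases (median -0.10, -0.07 after cyclic loess), with NBR1, a cargo receptor, at -0.57 and GABARAPL1 at 0.47. Of 50 RAB genes 8 passed 0.32 downwards (16%, against 7.04% of all genes) and 3 upwards (6%, against 5.73%). RAB28 was lowest and RAB27A, of secretory granules, highest (0.48).

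C2H2 zinc finger ZNF genes formed the largest family examined, and 229 of its 367 kept members were lower, with a median of -0.07 (-0.15 after median centring, -0.09 after cyclic loess). Past 0.32, 55 were lower and 9 higher, and at 1.5-fold 8 were lower and 0 higher, against 7.04%, 5.73%, 0.974% and 0.479% of all genes. These genes were dim (median signal 7.20), in the group by signal where all genes had a median of 0.08. The lowest were ZNF347 (-0.93), ZNF594 and ZNF860 (-0.73 each), ZNF571 (-0.69), ZNF253 (-0.64) and ZNF252P (-0.63). In A549 the same 367 genes had a median of 0.01. Nuclear receptor genes had a median of 0.08 (-0.0007 after median centring, 0.08 after cyclic loess), with HNF4G, an orphan receptor, at -0.62 and NR3C1, the glucocorticoid receptor, at -0.36. KLF and SP genes were higher in 15 of 21 cases (median 0.06, -0.02 after median centring, 0.08 after cyclic loess). Ion, metal and phosphate transporter genes were higher in 24 of 37 cases, with a median of 0.09 (0.0043 after median centring, 0.15 after cyclic loess). Past 0.32, 7 were higher (18.9%, against 5.73% of all genes) and 3 lower (8.11%, against 7.04%), the lowest at -0.35. Among transporters, SLC4A4, a sodium bicarbonate carrier, had 0.55, SLC36A1, a lysosomal amino acid carrier, 0.49, the iron exporter SLC40A1 0.47 and the phosphate carrier SLC20A1 0.38.

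**Figure D5:**
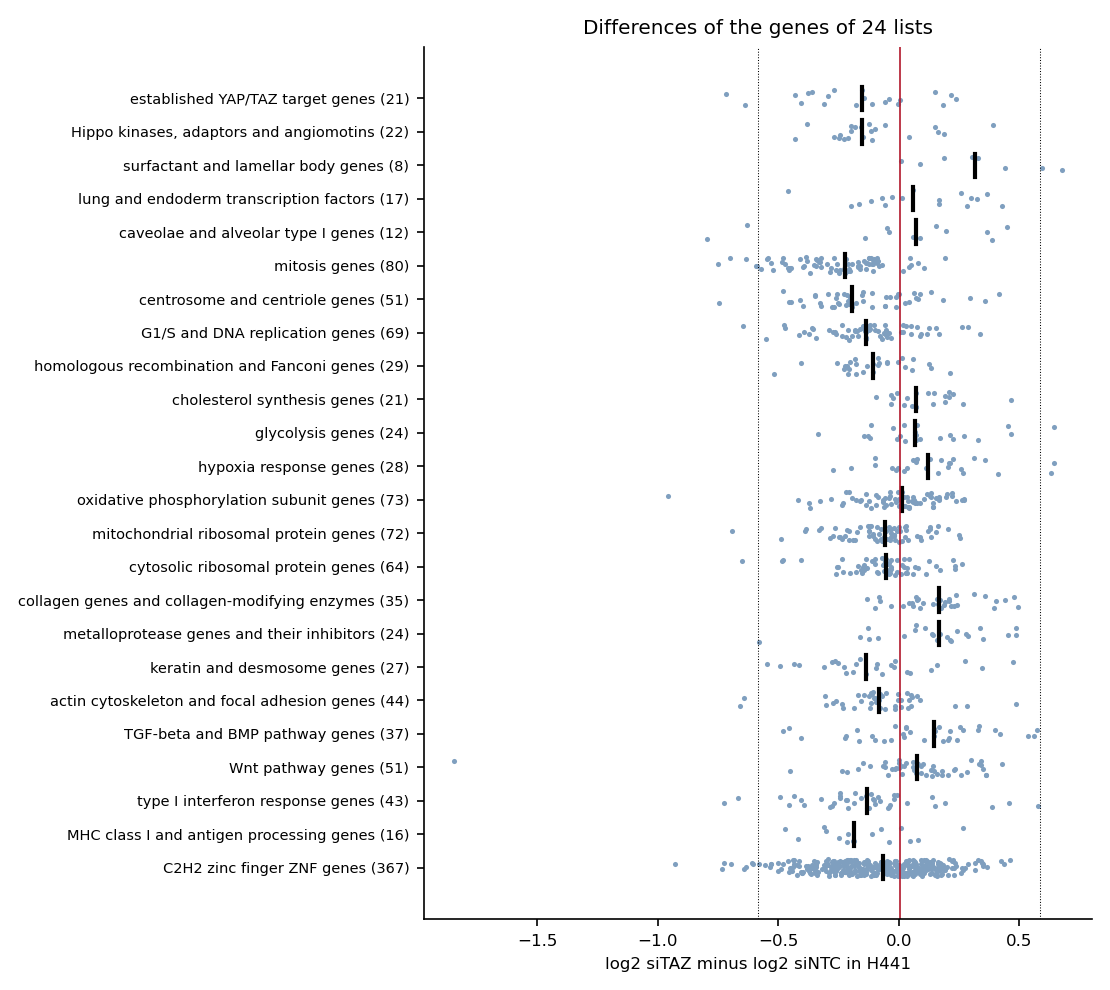
H441 differences (log2 siTAZ minus siNTC, 1 array each) of the kept genes of 24 lists, 1 point per gene, with the number of genes in brackets; black bars are list medians, the red line is the median of all 11911 genes and dotted lines mark 1.5-fold. The bars of the mitosis (-0.23), centrosome (-0.20) and MHC class I (-0.19) lists lie farthest to the left and that of the surfactant list (0.32) farthest to the right; after median centring the bars of the lung factor, caveolae, cholesterol, glycolysis, oxidative phosphorylation and Wnt lists pass to the left of 0, and after quantile normalization or cyclic loess that of the cytosolic ribosomal list passes to its right.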

How the data were processed

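Total RNA of A549 and H441 cells was read on 4 Affymetrix whole-transcript arrays, 1 per line and siRNA. The deposited values are log2 signals from RMA, per the submitters' processing notes and the range of the values. The software and its version, and whether 1 run of RMA took in every array, were not given in the sources used here, and RMA is known to draw the differences of dim probe sets towards 0. Of 28869 probe sets, 19310 carried a single gene symbol in the platform annotation, 1752 carried several and 7807 none; those with several or none were left out. Where a gene had several probe sets, the brightest on average across the 4 arrays stood for it. The difference of the 2 H441 arrays was computed with Python 3.11.15 and pandas 2.3.3. Quantile normalization and cyclic loess were run with limma 3.58.1 in R 4.3.3, and the scripts were tested on simulated data. With 1 array per group no test was run, and the number of arrays limits the precision.

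The genes named were TAZ, its paralog and partners, the 25 genes per direction with the largest difference, the 6 members of each list farthest from 0 at most, and every member of the surfactant, caveolae, 14-3-3, YAP/TAZ target and marker lists; the genes beside a threshold were named after their values were seen. The comparison and the 83 lists were chosen with earlier results of these data known. The alternatives tried were median centring, quantile normalization, cyclic loess, 3 other filters on dim genes, and the mean of a gene's probe sets. Promoter windows and motif counts came from RefSeq (GRCh38.p14). The values of 1 of these lists are not reported here.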

Additional observations from a re-analysis of the deposited data

Results flagged for a closer look

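In 5 genes the H441 difference was past 1.5-fold and the A549 difference past 0.32 on the log2 scale in the opposite direction. LIMA1, the actin-stabilising LIM protein, had -0.64 in H441 (10.07 with siNTC, 9.43 with siTAZ) and 0.35 in A549 (7.93 and 8.28). The zinc finger gene ZNF571 had -0.69 in H441 (6.46 and 5.77) and 0.34 in A549, where both arrays were below the table median (4.85 and 5.19). The pseudogene ZNF252P had -0.63 in H441 (8.02 and 7.39) and 0.39 in A549 (6.31 and 6.70). The glucose transporter SLC2A3 had 0.64 in H441 (7.93 and 8.57) and -0.58 in A549 (10.78 and 10.21). The small nucleolar RNA pseudogene SNORD13P3 had 0.66 in H441 (7.17 and 7.83) and -0.58 in A549 (9.38 and 8.80). With 1 array per line and siRNA the difference between the lines was not tested in any of them.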

How the results depend on the processing

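No paired analysis was possible because each group is 1 array, and no replicate could be left out. Of the 50 leading genes, those measured stayed past 1.5-fold in the same direction under all 7 alternatives (44 were measured with both arrays at or above the table median, 35 with the 75th percentile filter, 50 under the others). This was largely set in advance. The filters leave each difference unchanged, and the mean of probe sets alters only genes with several. Median centring moves every difference by the same amount, which took SFTPB, the smallest on the higher side, from 0.67 to 0.59. Under median centring 26 genes were at least 1.5-fold higher and 220 lower, against 57 and 116, and 9 were at least 2-fold lower, against 4. With genes kept only from the 75th percentile upwards, which leaves fewer genes, 37 were at least 1.5-fold higher and 74 lower. Under quantile normalization, as under cyclic loess, 2 genes were at least 2-fold higher, against 1. The median of leukocyte markers, 0.14 over 2 genes, was -0.0704 with the 75th percentile filter, which left 1 of them; HOX genes and endothelial markers had none left there. Of 78 list medians, 39 kept their sign under all 3 scalings and 39 did not. Median centring took the median of all genes kept from 0.0048 to -0.08, so a small positive list median changes sign by that shift alone. Dim genes limit what can be read: 6466 genes were below the table median on both H441 arrays.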

Other observations

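Calcium handling genes were higher in 15 of 19 cases, with a median of 0.12 (0.03 after median centring, 0.13 after cyclic loess). ATP2B1, a plasma membrane calcium pump, had 10.02 with siNTC and 10.39 with siTAZ (0.38), ORAI2, a store-operated channel subunit, 0.33 and ITPR3, an inositol trisphosphate receptor, 0.30, while MICU2, of the mitochondrial uniporter, had 8.28 and 7.87 (-0.41). Amino acid transporter genes were higher in 16 of 22 cases, with a median of 0.08 that was -0.01 after median centring and 0.13 after cyclic loess, and SLC6A9, a glycine carrier, had 0.41 and SLC7A1, an arginine carrier, 0.31. Notch pathway genes had a median of 0.10 (0.02 after median centring, 0.09 after cyclic loess). None of its 25 genes passed a difference of 0.32 in either direction, against 12.8% of all genes. The co-activator MAML2 was lowest with 8.32 and 8.001. The heat shock protein HSPB1 had 12.005 and 12.43 (0.43), and DNAJA3, a mitochondrial co-chaperone, 9.74 and 9.21 (-0.53). In the early secretory pathway SEC22C had 7.82 and 8.38 (0.57) and TMED4 10.09 and 9.52 (-0.57). CLOCK, the circadian activator, had 9.18 and 8.81 (-0.38). Of 27 HOX genes 7 were kept, all dim, and 5 of them were higher, with a median of 0.15 (0.07 after median centring, 0.06 after cyclic loess) and HOXD13 highest with 6.40 and 6.72.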
